A study of Homo sapiens with 24 samples.

Results

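The 8 genes described here, TAL1, LYL1, LMO1, LMO2, MEF2C, HHEX, TLX1 and TLX3, encode transcription factors and cofactors whose misplaced activity defines molecular subtypes of T-cell acute lymphoblastic leukaemia (T-ALL). They were taken as a list of names, each read from the brightest of the probe sets that the array annotation assigns to that gene alone, and they are 8 of the 19775 genes with such a probe set. Their levels were compared in 4 human T-ALL cell lines, RPMI-8402, P12-ICHIKAWA, SUPT11 and TALL-1, treated for 16 h with NVS-ZP7-3 or given DMSO alone. Every condition held 0.5% DMSO, and with 3 arrays for each line and treatment there were 8 groups and 24 arrays. The NVS-ZP7 compounds are known as inhibitors of SLC39A7 (ZIP7), a zinc transporter of the endoplasmic reticulum, found through an effect on Notch signalling. The labels name no dose, no target, and no separate cultures behind the 3 arrays of a group, so the p-values rest on array-to-array spread that may be technical. Each group is an established cell line, which stands for 1 leukaemia.

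In normal blood formation TAL1 and LYL1, basic helix-loop-helix proteins, act in stem and progenitor cells and are silenced as T cells mature. Each pairs with an E protein (TCF3, TCF4 or TCF12), binds E-box or GATA sites, and is joined to GATA factors by a LIM-only protein (LMO1 or LMO2) and LDB1. In T-ALL, rearrangements keep one or more of these parts active. MEF2C, a MADS-box factor, marks immature T-ALL, HHEX is a homeobox gene that acts downstream of LMO2 and LYL1 in mouse thymocytes, and TLX1 and TLX3 are homeobox genes that are silent in normal T cells. RPMI-8402 is the line from which LMO1 was cloned, at a translocation to the T-cell receptor alpha/delta locus, and it also carries the deletion that places TAL1 under the promoter of STIL.

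Levels are log2 signals as deposited, on which undetected probe sets lie at a floor of 2.18, and a gene counted as expressed in a line at a group mean of log2 4 or more. Anything below the floor is unseen, so a difference from a group at the floor is a lower bound. Of the 8 genes, 6 passed the filter on low values (log2 4 or more on at least 3 arrays), as did 10661 genes in all. TLX1 did not exceed 2.19 and TLX3 did not exceed 2.18 on any array, so neither was tested. Within groups, pairs of arrays had a Pearson correlation of 0.993 to 0.998 over genes, and genes are no replicates. All lines showed T lineage markers, with 8 to 12 of 13 at log2 4 or more on each array. TALL-1 NVS-ZP7-3 replicate 2 held transcripts of other lines: 48 of 275 genes that were at the floor in TALL-1 with DMSO and at log2 10 or more in another line were raised by 0.5 or more there. The same held for 19 of 163 such genes on SUPT11 NVS-ZP7-3 replicate 2, against at most 6 on any other NVS-ZP7-3 array. RPMI-8402 DMSO replicate 3 showed blood cell transcripts, with 7 of 13 myeloid markers at log2 4 or more, LYZ at 12.54 and HBB at 14.65. Values without these 3 arrays stand beside the results where they change a call or a size, and the others are given together near the end.

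Promoter sequence is shown for TAL1 and LYL1, expressed together in RPMI-8402 with the GATA factors described later, and for LMO1, which fell there. Each window is the 250 bases upstream of the annotated start, on the strand of the gene, from RefSeq on GRCh38.p14, written 5′ to 3′. All 3 genes lie on the minus strand, TAL1 (the first of its 2 annotated starts) with the window chr1:47232336-47232585, LYL1 with chr19:13102859-13103108 and LMO1 with chr11:8268788-8269037. Capitals mark GATAAG on either strand (read as CTTATC on the other) and CANNTG, the general E-box.
TAL1: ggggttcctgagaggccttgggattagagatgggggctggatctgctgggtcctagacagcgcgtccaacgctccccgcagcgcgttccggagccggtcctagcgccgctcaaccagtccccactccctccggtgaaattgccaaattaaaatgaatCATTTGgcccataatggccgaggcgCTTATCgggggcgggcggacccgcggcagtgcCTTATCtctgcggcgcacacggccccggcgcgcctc
LYL1: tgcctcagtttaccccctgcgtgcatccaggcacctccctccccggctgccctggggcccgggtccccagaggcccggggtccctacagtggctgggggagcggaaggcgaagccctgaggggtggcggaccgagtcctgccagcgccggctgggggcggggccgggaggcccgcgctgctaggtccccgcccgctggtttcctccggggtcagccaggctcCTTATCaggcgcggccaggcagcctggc
LMO1: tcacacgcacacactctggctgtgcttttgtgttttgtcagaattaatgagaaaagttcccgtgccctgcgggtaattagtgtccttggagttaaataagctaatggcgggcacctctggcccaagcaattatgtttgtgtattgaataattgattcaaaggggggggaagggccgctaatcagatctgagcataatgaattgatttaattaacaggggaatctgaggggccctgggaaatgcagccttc

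The TAL1 window held 2 GATA matches, which began 68 and 36 bases upstream of the start, and the LYL1 window held 1, 28 bases upstream. Of all 35116 promoter windows of this length, 5.65% held at least 1 GATA match and 0.29% held 2 or more. TAL1 also had 1 CANNTG match, as 61.8% of all windows did. The window of the second TAL1 start, chr1:47231716-47231965, held no GATA match, no CANNTG and 3 matches to TGTGGT, the RUNX motif. The LMO1 window held no GATAAG, no CANNTG and no TGTGGT, which was present in 11% of all windows. It was 45.6% G and C, against a median of 58.0% over all windows, 64.8% for TAL1 and 75.2% for LYL1. CAGATG, the E-box that TAL1 dimers prefer and a subset of CANNTG, was in none of the 3 windows and in 12.2% of all windows. A window was found for 7 of the 8 genes, with 14 windows in all. The HHEX window had no match to any of these motifs, and 1 of 7 MEF2C windows held 2 GATA matches. A match is a string of letters and was not tested as a binding site. The windows are those of the reference genome, and RPMI-8402 carries the rearrangements at TAL1 and LMO1 named above.

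RPMI-8402 expressed 5 of the 8 genes, P12-ICHIKAWA 1, SUPT11 1 and TALL-1 none. RPMI-8402 had TAL1, LYL1, LMO1, HHEX and MEF2C, P12-ICHIKAWA had LMO2, and SUPT11 had MEF2C. MEF2C was thus the only 1 of the 8 expressed in more than 1 line, and LMO1 and LMO2, which can fill the same place in the TAL1 complex, were not expressed in the same line.

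**Figure D1:**
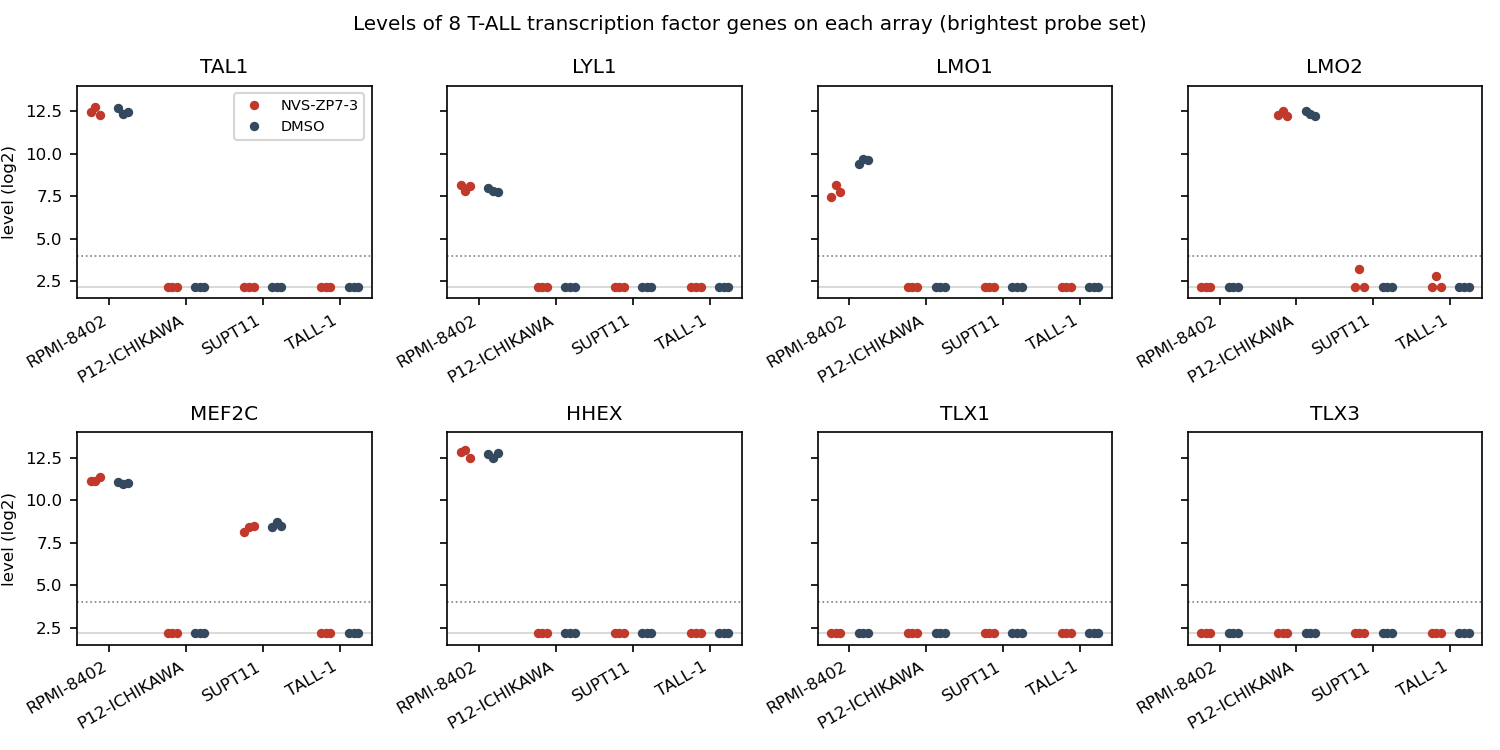
Level (log2, vertical axis) of the brightest probe set of each of the 8 genes on each of the 24 arrays, by line, with NVS-ZP7-3 (red) left of DMSO (dark). The solid line is the floor of 2.18 and the dotted line log2 4. TAL1, LYL1, LMO1 and HHEX stand above the floor in RPMI-8402, LMO2 in P12-ICHIKAWA, MEF2C in RPMI-8402 and SUPT11, and no gene passes the dotted line in TALL-1. The LMO1 arrays of the 2 treatments in RPMI-8402 do not overlap.

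Expression confined to 1 line was uncommon among all genes. With DMSO, 176 of the 9509 genes expressed in RPMI-8402 lay at the floor in the other 3 lines, which is 1.85%, and 47 of those in P12-ICHIKAWA, which is 0.508%. In SUPT11 296 genes did so and in TALL-1 47. TAL1, LYL1, LMO1 and HHEX are among the 176 of RPMI-8402 and LMO2 among the 47 of P12-ICHIKAWA.

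TAL1, the helix-loop-helix factor of the complex, read 12.44, 12.75 and 12.30 on the 3 RPMI-8402 arrays with NVS-ZP7-3, against 12.68, 12.33 and 12.48 with DMSO. The arrays of the treatments overlap fully. In the other lines TAL1 lay at the floor on all arrays. Its fitted change in RPMI-8402 was 0 ± 0.084 (log2, SE, 3 arrays per group; 95% interval -0.18 to 0.17; limma adjusted p = 1). The SD of TAL1 there was 0.23 with NVS-ZP7-3 and 0.18 with DMSO. The SE pools these groups with those at the floor, so SE and interval can be too small. The same holds for LYL1, LMO1 and HHEX below. STIL, whose promoter drives TAL1 after the deletion, averaged 12.28 with NVS-ZP7-3 and 12.31 with DMSO in RPMI-8402 (change -0.03 ± 0.07, limma adjusted p = 0.776). PDZK1IP1, the neighbour on the other side, did not reach log2 4 on any array. TAL1 has 4 probe sets of its own. A second, dim one fell to 4.20 with NVS-ZP7-3, against 4.46 with DMSO in RPMI-8402 (change -0.26 ± 0.068, limma adjusted p = 0.00586 over all probe sets tested), so the 2 probe sets disagree, and the other 2 lay at the floor on all arrays.

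LYL1, the close relative of TAL1, read 8.16, 7.83 and 8.11 in RPMI-8402 with NVS-ZP7-3, against 8.01, 7.84 and 7.74 with DMSO. The highest 2 arrays were treated ones, but the groups overlap. The change of 0.17 ± 0.067 (95% interval 0.03 to 0.31) was on the edge of the threshold and not called (limma adjusted p = 0.0548). It passed with quantile normalization (0.24, limma adjusted p = 0.0173) and not in a fit of RPMI-8402 alone (limma adjusted p = 0.286) or without the 3 arrays that stand apart (0.11, limma adjusted p = 0.302). LYL1 lay at the floor in the other 3 lines.

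LMO1, the LIM-only bridge between the DNA-binding parts of the complex, fell in RPMI-8402. It read 7.49, 8.16 and 7.78 with NVS-ZP7-3, against 9.41, 9.71 and 9.62 with DMSO. Every treated array lay below every DMSO array, with a gap wider than the spread within either group. It fell 3.41-fold (change -1.77 ± 0.10 on the log2 scale, 95% interval -1.99 to -1.55, limma adjusted p = 1.67e-10), and the levels were well above the floor in both groups. LMO1 was the 1 called gene of the 5 expressed in RPMI-8402. For comparison, 36.6% of all genes tested and 39.9% of those expressed in RPMI-8402 were called there, with 21.5% of all genes tested called lower and 15.1% higher. The arrays did not overlap, with lower levels under treatment, for 28.7%. In RPMI-8402, 84 genes had a change as low as that of LMO1 or lower. Over all genes tested the median change was -0.022. Only 1 probe set reads LMO1, so no second one stands beside it.

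The change of LMO1 was about as large without the 3 arrays that stand apart, at -1.75 (limma adjusted p = 4.87e-08). With the 6 RPMI-8402 arrays alone it was -1.77 ± 0.18 (limma adjusted p = 0.00132), and with the HBB level of each array in the fit -1.75 (limma adjusted p = 6.99e-10). The signal of ACTB at its 3′ end minus that at its 5′ end, a sign of RNA integrity, averaged 2.436 with NVS-ZP7-3 and 2.134 with DMSO in RPMI-8402. It was 2.285 to 2.604 with NVS-ZP7-3 and 2.058 to 2.198 with DMSO there, without overlap. With that value as a covariate the LMO1 change was -1.86 (limma adjusted p = 6.97e-09). Since the covariate differs between the treatments in the 1 line that expresses LMO1, this fit cannot separate RNA integrity from the treatment. LMO1 lay at the floor in the other 3 lines, where a fall could not be seen. RIC3, a neighbour of LMO1 on chromosome 11, was at the floor on all arrays. Fewer transcripts per cell and fewer cells of a kind cannot be told apart in RNA from whole cultures.

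**Figure D2:**
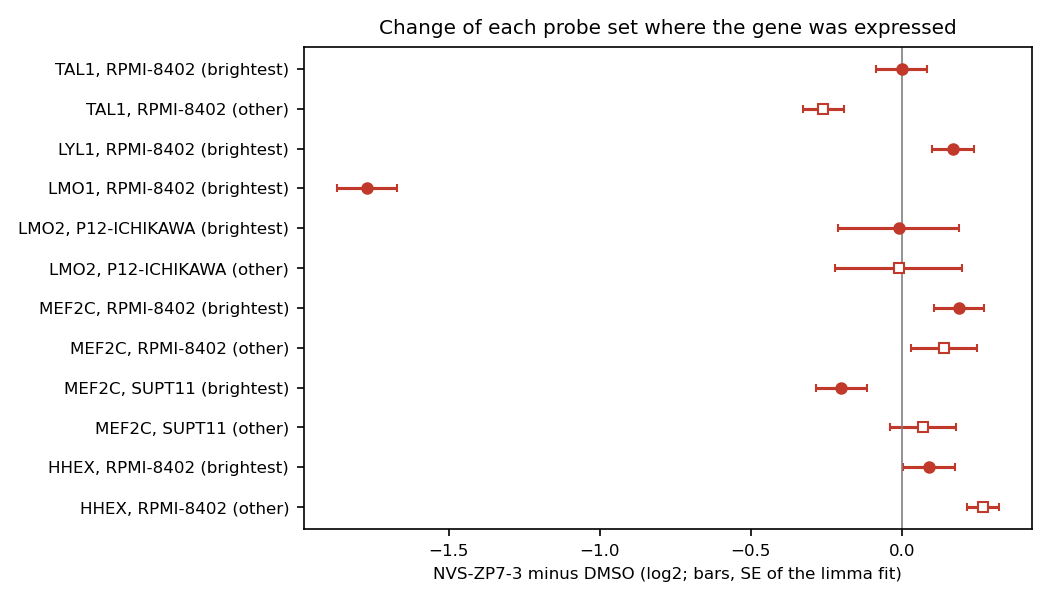
NVS-ZP7-3 minus DMSO (log2, horizontal axis) for each tested probe set of the members in the lines where it was at log2 4 or more, filled for the brightest probe set of a gene and open for others, with bars for the SE of the limma fit. LMO1 at -1.77 stands apart, and the other values lie between -0.26 and 0.27. The 2 probe sets of MEF2C in SUPT11 lie on opposite sides of 0.

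The genes with a pattern most like LMO1 over the 24 arrays, by the smallest root mean square difference after centring each gene on its mean, were RND3 (0.113), PLK2 (0.267) and SLITRK5 (0.289). PLK2 encodes a polo-like kinase. All 3 lay at the floor outside RPMI-8402. RND3 read 7.63, 7.85 and 7.81 with NVS-ZP7-3, against 9.40, 9.37 and 9.30 with DMSO. PLK2 averaged 7.92 with NVS-ZP7-3 and 9.0 with DMSO, and SLITRK5 averaged 8.40 with NVS-ZP7-3 and 9.34 with DMSO. These genes were chosen for this likeness, so their values are a description. Of the 176 genes limited to RPMI-8402, 81 were called lower with NVS-ZP7-3 and 36 higher, which is 46.0% and 20.5%, with a median change of -0.22. Of them, 29 had a change as low as that of LMO1 or lower. They were chosen for their expression with DMSO, the baseline of the change, so no gene that rises from the floor can be among them, and this split is a description.

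**Figure D3:**
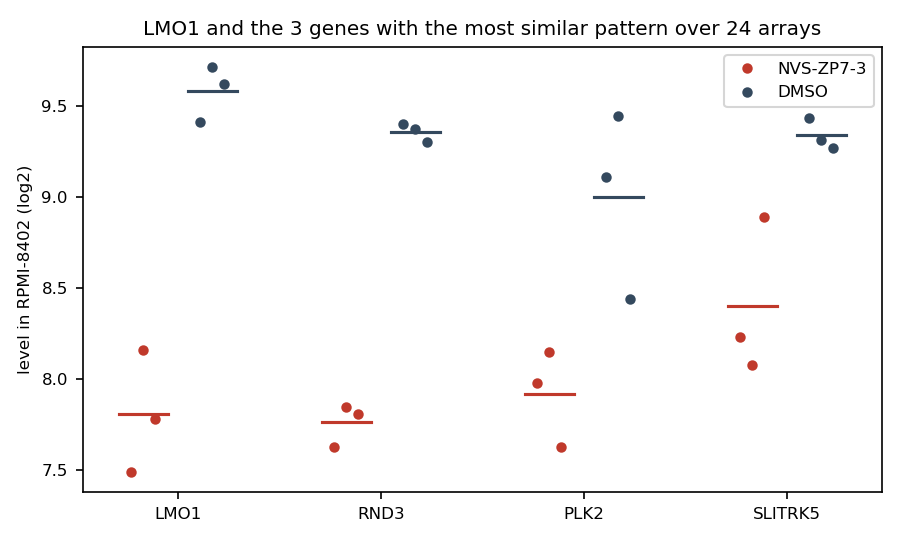
Level in RPMI-8402 (log2, vertical axis, which does not start at 0) of LMO1 and the 3 genes most like it, with NVS-ZP7-3 (red) left of DMSO (dark), a point for each array and a bar for the group mean. LMO1 averages 7.81 with NVS-ZP7-3 and 9.58 with DMSO, and RND3 averages 7.76 with NVS-ZP7-3 and 9.36 with DMSO.

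LMO2, the LIM-only protein that normal progenitors use, was expressed in P12-ICHIKAWA. It read 12.32, 12.52 and 12.24 with NVS-ZP7-3, against 12.54, 12.35 and 12.23 with DMSO, and the groups overlap. The change was -0.01 ± 0.20 (95% interval -0.44 to 0.42, limma adjusted p = 1), in a line where 7.89% of all genes were called. Within P12-ICHIKAWA the SD was 0.14 with NVS-ZP7-3 and 0.15 with DMSO. The SE also holds the SD of 0.61 in SUPT11 and 0.37 in TALL-1 with NVS-ZP7-3, which widens it. A second probe set averaged 8.76 with NVS-ZP7-3 and 8.77 with DMSO. Outside P12-ICHIKAWA, LMO2 left the floor on 2 arrays alone, at 3.24 on SUPT11 NVS-ZP7-3 replicate 2 and at 2.83 on TALL-1 NVS-ZP7-3 replicate 2. These are the 2 arrays with transcripts of other lines, and LMO2 is itself among the genes counted for that. On RPMI-8402 DMSO replicate 3, with its myeloid transcripts, LMO2 stayed at 2.18. The genes most like LMO2 were CD1E (0.437), a lipid-presenting molecule of cortical thymocytes, IGLL1 (0.498) and PSMA8 (0.510). CD1E fell in P12-ICHIKAWA (change -0.61 ± 0.16, limma adjusted p = 0.0217). HBB averaged 9.19 in P12-ICHIKAWA with NVS-ZP7-3 and was at most 2.29 with DMSO, a change that was not called (limma adjusted p = 0.0863). With HBB as a covariate the LMO2 change was -0.18 (limma adjusted p = 0.84).

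MEF2C was expressed in RPMI-8402 and SUPT11. With DMSO it averaged 11.04 ± 0.055 in RPMI-8402 and 8.55 ± 0.16 in SUPT11 (SD, n = 3 each), a difference of 2.49 ± 0.083 (SE; limma adjusted p = 8.08e-16, a contrast in which 79.7% of all genes were called). In RPMI-8402 it read 11.14, 11.16 and 11.39 with NVS-ZP7-3, against 11.09, 10.98 and 11.05 with DMSO. The treated arrays all lay above the DMSO arrays, as for 20.5% of all genes in that line. The change of 0.19 ± 0.083 was not called (95% interval 0.02 to 0.36, limma adjusted p = 0.0816). In SUPT11 it read 8.14, 8.42 and 8.48 with NVS-ZP7-3, against 8.42, 8.73 and 8.50 with DMSO. These groups overlap, and the change of -0.20 ± 0.083 was not called (95% interval -0.38 to -0.03, limma adjusted p = 0.427), in a line where 1.76% of all genes were.

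The response of MEF2C in RPMI-8402 minus that in SUPT11 was 0.39 ± 0.12 (95% interval 0.15 to 0.64) and passed the threshold (limma adjusted p = 0.0256), as did 17.4% of all genes in that contrast. Its SE also pools P12-ICHIKAWA and TALL-1, where MEF2C lay at the floor with an SD of 0. The SE, the interval and the adjusted p can thus be too small. MEF2C missed the threshold in the F test over all 4 lines (limma adjusted p = 0.0734), which 35.8% of all genes passed. Without the 3 arrays that stand apart the difference was 0.43 and missed the threshold (limma adjusted p = 0.0515), and with the mean of all MEF2C probe sets it was 0.07 (limma adjusted p = 0.662). A second MEF2C probe set had changes of 0.14 ± 0.11 in RPMI-8402 and 0.07 ± 0.11 in SUPT11, neither called (limma adjusted p = 0.381 and 1). The opposite signs of the brightest probe set were thus not shared by the second. The genes most like MEF2C were TCAM1P (0.295), BEX5 (0.368) and CLIP3 (0.513), all higher in RPMI-8402 than in SUPT11.

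HHEX, a homeobox repressor of blood progenitors, read 12.88, 12.94 and 12.49 in RPMI-8402 with NVS-ZP7-3, against 12.75, 12.49 and 12.80 with DMSO. The groups overlap, and the change was 0.09 ± 0.085 (95% interval -0.09 to 0.26, limma adjusted p = 0.485). A second probe set rose to 12.27 with NVS-ZP7-3 (change against DMSO 0.27 ± 0.052, limma adjusted p = 0.000541), so the call depends on the probe set. The genes most like HHEX were TAL1 (0.114), CD34 (0.116) and NKX2-1 (0.147). The same measure named HHEX (0.114), CD34 (0.158) and EHD2 (0.180) for TAL1, and ARHGAP28 (0.175), TMEM92 (0.238) and MITF (0.244) for LYL1. All of these genes lay below log2 4 outside RPMI-8402.

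Around TAL1 and LYL1, RPMI-8402 expressed all 13 tested partners of the complex, and the other lines 11 each. GATA2 passed the filter through RPMI-8402 alone, and CBFA2T3 counted there at 4.33 with NVS-ZP7-3 and 3.98 with DMSO. The list of 15 partners was taken from textbook knowledge, and 14 had a probe set of their own. GATA1, the GATA factor of red cells, was at the floor on all arrays. In RPMI-8402 GATA3, SSBP2 and TCF12 were called higher (3 genes) and GATA2, TCF4 and KDM1A lower (3 genes), with a median change of -0.04 over the expressed partners. In P12-ICHIKAWA the same 3 were called higher and none lower by limma (1 at an unadjusted p below 0.05; median 0.02). In SUPT11 limma called none (2 higher and 0 lower at an unadjusted p below 0.05; median 0.06). In TALL-1, where 41.9% of all genes were called and no member is expressed, 5 were called lower (GATA3, CBFA2T3, LDB1, KDM1A and CBFB) and none higher (median -0.14, limma). The median over all genes was 0 in these 3 lines. Of all genes, 15.1% were called higher and 21.5% lower in RPMI-8402, and 4.91% and 2.98% in P12-ICHIKAWA. In SUPT11 these shares were 1.18% and 0.582%, and in TALL-1 22.3% and 19.6%. In TALL-1 the ACTB 3′ minus 5′ difference averaged 2.498 with NVS-ZP7-3 and 2.011 with DMSO, without overlap, and 6 of 13 T lineage markers were called lower and none higher (limma; 0 higher at an unadjusted p below 0.05). Fits with the ACTB difference as a covariate are given below for single partners. In RPMI-8402 and TALL-1 that difference did not overlap between the treatments, which limits these fits. The part of the T lineage markers in the calls of the partners was not tested.

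Among the E proteins, the dimer partners of TAL1 and LYL1, TCF4 fell in RPMI-8402 to 12.55 with NVS-ZP7-3, against 12.98 with DMSO (change -0.44 ± 0.087, limma adjusted p = 0.00061). TCF12 rose there by 0.21 ± 0.056 (limma adjusted p = 0.00585; 0.0697 with the ACTB difference as a covariate). With the mean of its probe sets the TCF12 change was 1.08 (limma adjusted p = 0.0484). The change of TCF3 in RPMI-8402 was -0.04 ± 0.033 (limma adjusted p = 0.351). In P12-ICHIKAWA TCF12 rose by 0.20 (limma adjusted p = 0.0346), but its value was -0.44 with the mean of its probe sets and the call was lost without the 3 arrays (limma adjusted p = 0.0686). The TCF4 response in RPMI-8402 differed from those in SUPT11 by -0.50 ± 0.12 and in TALL-1 by -0.40 ± 0.12 (limma adjusted p = 0.00746 and 0.0244), and from that in P12-ICHIKAWA by -0.18 ± 0.12 (limma adjusted p = 0.385).

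The response contrasts between pairs of lines called 14.4% (RPMI-8402 minus P12-ICHIKAWA), 17.4% (RPMI-8402 minus SUPT11), 23.6% (RPMI-8402 minus TALL-1), 1.82% (P12-ICHIKAWA minus SUPT11), 21.2% (P12-ICHIKAWA minus TALL-1) and 26.7% (SUPT11 minus TALL-1) of all genes.

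GATA3, the GATA factor of T cells and a partner of the complex, moved in opposite directions. It rose in P12-ICHIKAWA to 10.98 with NVS-ZP7-3, against 10.31 with DMSO (change 0.67 ± 0.058, limma adjusted p = 3.53e-07). It fell in TALL-1 to 11.32, against 12.13 with DMSO (change -0.81 ± 0.058, limma adjusted p = 3.04e-09). In RPMI-8402 the rise was 0.22 ± 0.058 (limma adjusted p = 0.00635; 0.0698 with the ACTB difference as a covariate), and in SUPT11 the change was 0.01 ± 0.058. GATA2, the GATA factor of stem cells, was expressed in RPMI-8402 alone, at 10.84 with NVS-ZP7-3 and 11.02 with DMSO. Its arrays overlapped, and the call (-0.18 ± 0.066, limma adjusted p = 0.0459) was lost in a fit of RPMI-8402 alone (limma adjusted p = 0.268) and without the 3 arrays that stand apart (limma adjusted p = 0.158).

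Among the cofactors, SSBP2, which stabilises LDB1, rose by 0.46 ± 0.047 in RPMI-8402 and by 0.23 ± 0.047 in P12-ICHIKAWA (limma adjusted p = 4.05e-07 and 0.00365; the second was 0.0906 in a fit of that line alone). KDM1A, a histone demethylase bound by TAL1, fell by 0.19 in RPMI-8402 and by 0.21 in TALL-1 (limma adjusted p = 0.0116 and 0.00507; the second was 0.0581 in a fit of that line alone). LDB1 had a change of -0.08 ± 0.19 in RPMI-8402 (limma adjusted p = 0.83). In TALL-1 LDB1 fell by 0.49 and the corepressor CBFA2T3 by 0.50 (log2; limma adjusted p = 0.0464 and 0.0341), and neither call held without the 3 arrays that stand apart (limma adjusted p = 0.0825 and 0.0761). With the ACTB difference as a covariate the LDB1 change there was -1.07 (limma adjusted p = 0.00351) and that of KDM1A -0.35 (limma adjusted p = 0.00264).

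Of 10 genes reported as controlled by TAL1 in T-ALL, 7 were tested. In RPMI-8402, the line that expresses TAL1, 2 rose and none fell, and the same counts were found in P12-ICHIKAWA. In SUPT11 1 rose and none fell, and in TALL-1 2 rose and 1 fell. Over all genes tested, 36.6% were called in RPMI-8402, 7.89% in P12-ICHIKAWA, 1.76% in SUPT11 and 41.9% in TALL-1. The median change of the expressed genes was -0.02 in RPMI-8402, 0.10 in P12-ICHIKAWA, 0.09 in SUPT11 and -0.37 in TALL-1. In RPMI-8402 and P12-ICHIKAWA the 2 were GATA3 and ARID5B, an activator in the TAL1 network, which rose by 0.68 ± 0.14 in RPMI-8402 and by 0.67 ± 0.14 in P12-ICHIKAWA (limma adjusted p = 0.000904 and 0.00546; the second was 0.0531 in a fit of that line alone). In TALL-1, which does not express TAL1, ARID5B rose to 7.16 with NVS-ZP7-3, against 3.96 with DMSO (change 3.20 ± 0.14, limma adjusted p = 4.31e-12). The response in RPMI-8402 was smaller than that in TALL-1 (difference -2.52 ± 0.20, limma adjusted p = 4.04e-08). The mean of the ARID5B probe sets did not pass the filter on low values, so these changes rest on its brightest probe set. MYB, a member of the same circuit, averaged 14.82 with NVS-ZP7-3 and 14.84 with DMSO in RPMI-8402, and no call was made for it in any line. ALDH1A2 averaged 12.79 with NVS-ZP7-3 and 12.99 with DMSO there, and STAT5A averaged 12.16 with NVS-ZP7-3 and 12.23 with DMSO, neither called. TRIB2, a pseudokinase, rose in TALL-1 by 0.53 ± 0.055 (limma adjusted p = 3.26e-07). KIT lay at the floor on all arrays.

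CDK6, a cell-cycle kinase on the same list, was called higher in SUPT11 (limma adjusted p = 0.0109), and 1 array decides the size. It read 4.72, 9.53 and 4.35 with NVS-ZP7-3, against 2.27, 2.49 and 2.27 with DMSO, and in the other lines it was at 14.77 or more on every array. The value of 9.53 is that of replicate 2, 1 of the arrays with transcripts of other lines. The change was 3.86 ± 0.79 with it and 2.19 ± 0.08 without it (limma adjusted p = 9.06e-12), and a fit of SUPT11 alone made no call (limma adjusted p = 0.367). With the mean of its probe sets the change was 1.23 (limma adjusted p = 0.0207). The part of such transcripts in the remaining difference was not tested.

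RPMI-8402 also expressed 7 of the 8 tested genes linked to MEF2C, LYL1 and LMO2 in immature T-ALL, against 3 in P12-ICHIKAWA, 1 in SUPT11 and 3 in TALL-1. GATA2, ERG, CD34 and MEIS1 passed the filter through RPMI-8402 alone, so the higher count there is partly set by the filter. ERG, an ETS factor of stem cells, averaged 13.10 with NVS-ZP7-3 and 12.92 with DMSO there, CD34, the progenitor surface marker, 12.80 and 12.77, and the homeobox cofactor MEIS1 6.45 and 6.61, none called. All 3 were below log2 4 in the other lines. Of the list, GATA2 alone was called in RPMI-8402 (lower), and BCL2, the survival factor, was called lower in TALL-1 (-0.63 ± 0.15, limma adjusted p = 0.00229). By limma no gene of the list was called in P12-ICHIKAWA (0 at an unadjusted p below 0.05) or SUPT11 (2, both higher, at an unadjusted p below 0.05). The median over the expressed genes was 0.05 in RPMI-8402. Of all genes tested, 36.6% were called in RPMI-8402, 7.89% in P12-ICHIKAWA, 1.76% in SUPT11 and 41.9% in TALL-1.

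Of 10 other factors that define T-ALL subtypes, 6 had a probe set of their own and 2 passed the filter. NKX2-1, a homeobox gene that marks a proliferative T-ALL subtype, was expressed in RPMI-8402 alone. It averaged 12.94 with NVS-ZP7-3 and 12.67 with DMSO (change 0.27 ± 0.067, limma adjusted p = 0.00394), with overlapping arrays and no call in a fit of that line alone (limma adjusted p = 0.117). With the mean of its probe sets the change was 0.13 (limma adjusted p = 0.0132). BCL11B, a T-cell commitment factor, was expressed in all lines and fell in TALL-1 (-0.54 ± 0.056, limma adjusted p = 3.08e-07). TAL2, OLIG2, NKX2-2 and NKX2-5 lay at the floor on all arrays. SUPT11 and TALL-1 expressed none of TAL1, LYL1, LMO1, LMO2, TLX1, TLX3 or NKX2-1.

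MEF2D, a broadly expressed paralog of MEF2C, rose to 7.26 with NVS-ZP7-3, against 6.39 with DMSO in RPMI-8402 (change 0.87 ± 0.10, limma adjusted p = 2.05e-06), and to 7.49, against 6.61 with DMSO in TALL-1 (0.89 ± 0.10, limma adjusted p = 1.05e-06). With the mean of its probe sets the rise in RPMI-8402 was 0.43 (limma adjusted p = 1.33e-06). MEF2A rose by 0.28 to 0.44 in RPMI-8402, P12-ICHIKAWA and TALL-1, though not with the mean of all its probe sets in P12-ICHIKAWA (0.16, limma adjusted p = 0.339) and TALL-1 (0.04, limma adjusted p = 0.826). A fit of the line alone lost the MEF2A calls in RPMI-8402 and P12-ICHIKAWA (limma adjusted p = 0.053 and 0.0699). No paralog was called lower in any line by limma, and none was called in SUPT11 (1 at an unadjusted p below 0.05). Of all genes tested, 15.1% were called higher and 21.5% lower in RPMI-8402, and 4.91% and 2.98% in P12-ICHIKAWA. The shares were 1.18% and 0.582% in SUPT11, and 22.3% and 19.6% in TALL-1. LMO4, another LIM-only protein, averaged 9.34 with NVS-ZP7-3 and 9.10 with DMSO in RPMI-8402 (limma adjusted p = 0.138), and LMO3 lay at the floor on all arrays.

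The class IIa histone deacetylases, which bind MEF2 factors and hold their targets silent, moved in both directions. HDAC9, known in muscle as a target of MEF2 factors, rose in P12-ICHIKAWA and TALL-1, which expressed it with DMSO, and in RPMI-8402. RPMI-8402 counts as expressing HDAC9 through the treated arrays alone. In RPMI-8402 it averaged 4.98 with NVS-ZP7-3 and lay at the floor of 2.18 with DMSO, a rise of at least 2.80 ± 0.21 (log2; limma adjusted p = 4.54e-09). In P12-ICHIKAWA it rose by 1.98 ± 0.21 and in TALL-1 by 1.26 ± 0.21 (limma adjusted p = 3.36e-06 and 7.03e-05). With the mean of its probe sets the rises were smaller, from 0.72 in TALL-1 to 0.87 in RPMI-8402, and stayed called. HDAC4 fell in the same lines, by 0.64 ± 0.053 in RPMI-8402, by 0.29 ± 0.053 in TALL-1 and by 0.23 ± 0.053 in P12-ICHIKAWA (limma adjusted p = 2.06e-08, 0.000182 and 0.00844). With the mean of its probe sets the HDAC4 changes were -0.40 in RPMI-8402, -0.15 in TALL-1 and -0.10 in P12-ICHIKAWA, the last not called (limma adjusted p = 0.125). The call in P12-ICHIKAWA was also lost in a fit of that line alone (limma adjusted p = 0.191). Of the other 2 genes of the class, HDAC7 was not called in any line and HDAC5 did not pass the filter. For comparison, 36.6% of all genes tested were called in RPMI-8402, 7.89% in P12-ICHIKAWA, 1.76% in SUPT11 and 41.9% in TALL-1.

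**Figure D4:**
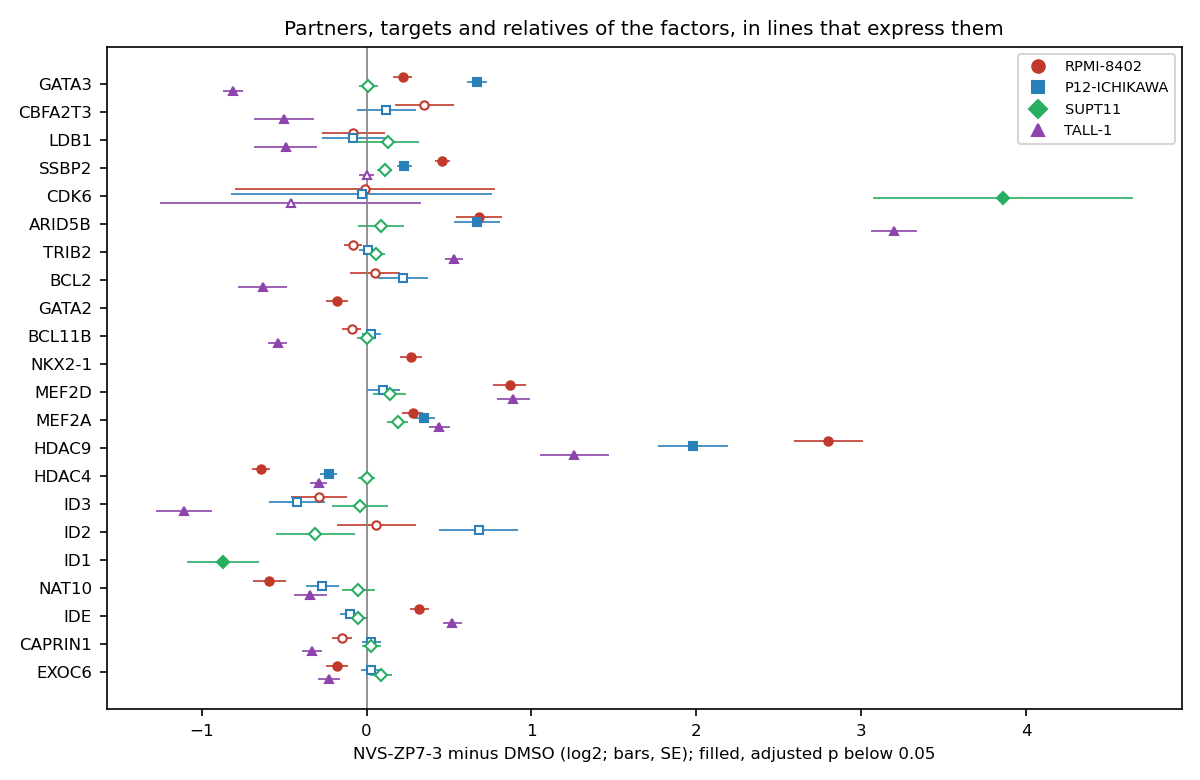
NVS-ZP7-3 minus DMSO (log2, horizontal axis) for named partners, targets and relatives of the factors, in each line where the gene was at log2 4 or more, with bars for the SE of the limma fit and filled symbols for an adjusted p below 0.05. GATA3 lies above 0 in P12-ICHIKAWA (0.67) and below it in TALL-1 (-0.81), HDAC9 lies above 0 in 3 lines and HDAC4 below it in the same lines. The wide value of CDK6 in SUPT11 (3.86) includes the array with transcripts of other lines.

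The ID proteins block E proteins. ID3 fell in TALL-1 by 1.11 ± 0.17 (log2; limma adjusted p = 3.95e-05), and had a change of -0.29 ± 0.17 in RPMI-8402 (limma adjusted p = 0.202). ID2 was called higher in TALL-1, where it averaged 3.34 with NVS-ZP7-3 and 2.25 with DMSO, below log2 4 (change 1.09, and 1.80 with the ACTB difference as a covariate). ID1 fell in SUPT11 by 0.87 ± 0.22 (log2; limma adjusted p = 0.049), a call that did not hold without the 3 arrays (limma adjusted p = 0.32). Of 18 chromosomal neighbours of the 8 genes, 13 were tested. In RPMI-8402 1 rose and 2 fell, and in TALL-1 1 rose and 4 fell, with none called by limma in P12-ICHIKAWA (1 at an unadjusted p below 0.05) or SUPT11 (0). Of all genes, 36.6% were called in RPMI-8402 and 41.9% in TALL-1. NAT10, near LMO2, fell by 0.59 ± 0.10 in RPMI-8402 (log2; limma adjusted p = 0.000184). IDE, near HHEX, rose by 0.32 ± 0.058 in RPMI-8402 and by 0.52 ± 0.058 in TALL-1 (limma adjusted p = 0.000299 and 7.12e-07), but its value in RPMI-8402 was -0.01 with the mean of its probe sets. EXOC6, also near HHEX, fell by 0.23 in TALL-1 (limma adjusted p = 0.00843; 0.209 with the mean of its probe sets), and CAPRIN1, near LMO2, by 0.33 there (limma adjusted p = 0.000177).

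Markers of other cells were set beside the fall of LMO1. Of 13 myeloid markers, the summed level above the floor was 3.15 to 8.54 on the RPMI-8402 arrays with NVS-ZP7-3 and 1.08 to 37.46 with DMSO. Of 7 erythroid markers, the sum was 6.45 to 10.82 with NVS-ZP7-3 and 0.14 to 24.31 with DMSO, and AHSP, KLF1 and CA1 lay at the floor on all arrays, as did the myeloid genes CD14, CSF1R, MPO and ELANE. The T lineage sum of 13 markers was lower, at 86.64 to 88.56 with NVS-ZP7-3 and 94.16 to 94.40 with DMSO, with 5 markers called lower and none higher in RPMI-8402 (limma; 0 higher at an unadjusted p below 0.05), against 21.5% of all genes called lower and 15.1% higher. Among them CD2, an adhesion molecule of T cells, fell to 5.22 with NVS-ZP7-3, against 8.81 with DMSO (change -3.59 ± 0.13, limma adjusted p = 2.47e-13). The B lineage sum over 6 markers was 5.67 to 5.93 with NVS-ZP7-3 and 6.40 to 8.60 with DMSO, without overlap. IGHM, the heavy chain of IgM, was called lower (-1.36 ± 0.46, limma adjusted p = 0.0272), and MS4A1, PAX5 and EBF1 lay at the floor on all arrays. The platelet sum over 5 markers was 4.38 to 4.92 with NVS-ZP7-3 and 5.02 to 7.13 with DMSO, without overlap. TUBB1, a platelet tubulin, was called lower (-0.70 ± 0.24, limma adjusted p = 0.0295), and ITGA2B and GP9 lay at the floor on all arrays. TUBB1 was the 1 platelet marker at log2 4 or more on any array, so the sum and its call are largely the same observation. It was expressed in all 4 lines and does not mark platelets here. The part of these shifts in the other changes was not tested.

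Without the 3 arrays that stand apart, 36 of the 42 calls made for named list genes held. The 6 that did not were CBFA2T3 and LDB1 in TALL-1, GATA2 and EXOC6 in RPMI-8402, ID1 in SUPT11 and TCF12 in P12-ICHIKAWA. In TALL-1 the change of GATA3 was -0.82, that of ARID5B 3.03, that of TRIB2 0.53 and that of MEF2D 0.91 (log2), all called by limma. BCL2 there changed by -0.65, BCL11B by -0.57, HDAC9 by 1.29, HDAC4 by -0.28 and ID3 by -1.33, also called. In RPMI-8402 GATA3 changed by 0.19 (limma adjusted p = 0.0453) and NKX2-1 by 0.21 (limma adjusted p = 0.0446). The changes of MEF2C (0.19, limma adjusted p = 0.16) and HHEX (0.14, limma adjusted p = 0.3) in RPMI-8402 stayed uncalled, as did MEF2C in SUPT11 (-0.24, limma adjusted p = 0.556).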

How the data were processed

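The authors deposited 1 table of log2 values for 54675 Affymetrix probe sets on 24 arrays. Per the submitters' processing notes it was made with GCRMA and limma, whose versions and settings are not given in the sources used here. GCRMA subtracts modelled background and normalizes between arrays, so probe sets without signal share 1 lowest value, and small signals and changes below it are lost. Per the labels' protocols, RNA was isolated with a Qiagen kit and labelled with the Affymetrix 3' Plus protocol. No count lies behind a value, so the number of arrays limits the precision.

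Gene names came from the array's annotation, which gives 41097 probe sets 1 gene, 1801 several and 11777 none, of which 41043 were matched in a RefSeq table for current symbols. Each gene was read from its brightest probe set. In limma 3.58.1 (R 4.3.3), 1 mean was fitted per group over the 24 arrays, contrasts were moderated with eBayes, with Benjamini-Hochberg adjustment over the 10661 genes tested and a threshold of 0.05. Groups at the floor hardly vary and lower the shared spread, so standard errors of genes at the floor in some lines can be too small. The fit of a line alone avoids this within a line, but it gives no difference between lines. The fit was tested on simulated data in which the spread of a gene was its average over all groups. That test did not measure how far these standard errors are too small. Figures were drawn with matplotlib 3.10.9.

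The 8 genes and all lists were chosen with earlier results of these data known, and no list was tested as a set. Up to 4 genes of a list were named, those with the largest called changes, plus direct partners of a gene described. Alternatives were 2 other filters, averaging a gene's probe sets, quantile normalization, centring arrays on their medians, a replicate block, an intensity trend, a line alone, an adjusted p below 0.01, HBB, myeloid markers or the ACTB difference as covariates, and leaving out each array. Leaving out the 3 arrays that stand apart was chosen after seeing the data.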

Additional observations from a re-analysis of the deposited data

Results flagged for a closer look

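Responses that differed between lines were picked out by a test of the difference itself (limma, first line minus second line, log2, Benjamini-Hochberg adjusted), at the pair of lines with the largest difference among those that passed and where both lines expressed the gene. Among the 8 genes this was MEF2C (RPMI-8402 minus SUPT11, 0.39, adjusted p = 0.0256 by limma). With the mean of all MEF2C probe sets the difference was 0.07 (limma adjusted p = 0.662). The SE behind the MEF2C call can be too small, since the fit pools lines in which MEF2C lay at the floor. Among the partners of the complex these were GATA3 (P12-ICHIKAWA minus TALL-1, 1.47), SSBP2 (RPMI-8402 minus TALL-1, 0.46), CBFA2T3 (RPMI-8402 minus TALL-1, 0.84), TCF4 (RPMI-8402 minus SUPT11, -0.50) and TCF12 (RPMI-8402 minus TALL-1, 0.28). CBFA2T3 averaged 3.98 with DMSO in RPMI-8402, and its call in TALL-1 did not hold without the 3 arrays that stand apart. Among genes under TAL1 they were CDK6 (SUPT11 minus TALL-1, 4.32, which holds the array with transcripts of other lines), ARID5B (SUPT11 minus TALL-1, -3.11) and TRIB2 (RPMI-8402 minus TALL-1, -0.61). BCL2 (P12-ICHIKAWA minus TALL-1, 0.85) and BCL11B (P12-ICHIKAWA minus TALL-1, 0.57) followed. Among relatives and cofactors of MEF2C they were MEF2D (P12-ICHIKAWA minus TALL-1, -0.78), HDAC9 (RPMI-8402 minus TALL-1, 1.54) and HDAC4 (RPMI-8402 minus SUPT11, -0.64). HDAC9 was at the floor with DMSO in RPMI-8402. With the mean of its probe sets its changes were close, 0.87 in RPMI-8402 and 0.72 in TALL-1. ID3 differed by 1.07 (SUPT11 minus TALL-1). Among the chromosomal neighbours NAT10 differed by -0.54 (RPMI-8402 minus SUPT11), IDE by -0.62 (P12-ICHIKAWA minus TALL-1), CAPRIN1 by 0.36 (P12-ICHIKAWA minus TALL-1) and EXOC6 by 0.32 (SUPT11 minus TALL-1).

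A signal outside the comparisons was HBB, the red cell globin, which averaged 9.19 on the P12-ICHIKAWA arrays with NVS-ZP7-3 and was at most 2.29 with DMSO. The single arrays read 11.45, 8.17 and 7.96 with NVS-ZP7-3. The change of 6.97 ± 2.4 was not called (limma adjusted p = 0.0863). HBB was also seen in the other lines. In RPMI-8402 it read 9.42, 2.32 and 14.65 with DMSO, and 10.48, 8.63 and 12.99 with NVS-ZP7-3. With NVS-ZP7-3 it reached 10.61 in SUPT11 and 7.96 in TALL-1. LYZ read 8.01, 5.59 and 5.50 on the same P12-ICHIKAWA arrays.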

How the results depend on the processing

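The fall of LMO1 in RPMI-8402 held under all 13 alternatives, from -1.86 to -1.75, and without any 1 array, from -1.94 to -1.61 (limma adjusted p at most 0.00132). TAL1, LMO2 and MEF2C in SUPT11 were called under none. LYL1 passed the threshold with the mean of probe sets (0.17, limma adjusted p = 0.0492), quantile normalization (0.24) and median centring (0.18), and without RPMI-8402 NVS-ZP7-3 replicate 2 (0.27, limma adjusted p = 0.000771) or DMSO replicate 1 (0.24), within 0.11 to 0.27 without any 1 array. HHEX passed with the mean of probe sets (0.18) and without RPMI-8402 NVS-ZP7-3 replicate 3 (0.23), within -0.01 to 0.23. MEF2C in RPMI-8402 passed without SUPT11 NVS-ZP7-3 replicate 1 (limma adjusted p = 0.0389), within 0.11 to 0.23. The MEF2C response difference missed the threshold with the mean of probe sets (0.07), an intensity trend (0.39), a threshold of 0.01 (0.39), without the 3 arrays (0.43), and without SUPT11 DMSO replicate 2, SUPT11 NVS-ZP7-3 replicate 1, RPMI-8402 DMSO replicate 2 or RPMI-8402 NVS-ZP7-3 replicate 3 (limma adjusted p = 0.075, 0.0727, 0.0632 and 0.0702), within 0.29 to 0.46. The number of the 5 expressed genes called in RPMI-8402 was 3 with the mean of probe sets, 2 with quantile normalization, 2 with centring, and 1 to 2 without any 1 array. Of all genes, 841 were called in P12-ICHIKAWA, against 249 in a fit of the line alone, 434 at 0.01 and 388 with HBB as a covariate, and between 586 and 881 without any 1 array. In SUPT11 188 were called, against 33 in a fit of the line alone, 107 at 0.01 and 158 to 196 without any 1 array. In RPMI-8402 they lay between 2753 and 4129 (without any 1 array 3254 to 4039), and in TALL-1 between 3226 and 4588 (3893 to 4564). Median centring moved the share of calls that were higher in TALL-1 to 44.4%, against 53.2%. The cause of these changes was not tested. A pair of values turned sign with the mean of probe sets, IDE in RPMI-8402 (-0.01) and TCF12 in P12-ICHIKAWA (-0.44). Of 542 other values for single list genes, 476 kept their direction and side of the threshold and 64 lost the call.

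With the replicate number as a block, no result for the 8 genes changed its call (LMO1 -1.77, limma adjusted p = 3.19e-08; MEF2C response difference 0.39, limma adjusted p = 0.0209). Among the list genes, ARID5B, HDAC4 and TCF12 in P12-ICHIKAWA and EXOC6 in RPMI-8402 lost their calls (limma adjusted p = 0.0553, 0.0667, 0.0787 and 0.0941). Deviations of same-numbered arrays correlated at -0.14 to 0.42, with 2 of 12 pairs above 0.1. The highest value was that of P12-ICHIKAWA replicate 3. Most pairs thus showed little sign of pairing by number, but such correlations cannot exclude a shared culture or batch. What these arrays can show is limited by the floor and by 3 arrays a group.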
